A study of Mus musculus with 9 samples.

Results

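The Notch pathway was followed through 10 genes: the receptors Notch1, Notch2, Notch3 and Notch4, the ligands Jag1, Jag2, Dll1 and Dll3, and the target genes Hes1 and Hey1. They were taken by symbol from the 22180 genes of the array table, as the probe sets annotated with that symbol alone, with the brightest probe set kept for a gene that had several. All 10 were measured. The samples were mouse embryonic stem (ES) cells with a transgene in which the alpha-fetoprotein (Afp) promoter drives green fluorescent protein, written Afp::GFP in the labels. The cells were aggregated as embryoid bodies of 300 cells each in IMDM with 20% serum, were left to attach to gelatin, and were sorted by flow cytometry as Afp-expressing cells. The 3 groups were sorted at day 4, day 7 and day 21 of differentiation, with 3 arrays each; the transgene, the medium and the sorting marker were common to all of them. The series title gives the subject as transcription in differentiating endoderm. The Afp promoter is active in visceral endoderm, fetal liver and some fetal gut, so the reporter does not mark 1 cell type, and the labels say neither the strain nor whether the line was 1 clone.

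Notch receptors are single-pass membrane proteins that are cut when a ligand on a neighbouring cell pulls on them. ADAM proteases make the outer cut and gamma-secretase the inner one, which frees the intracellular domain to enter the nucleus, join the DNA-binding protein RBPJ and a Mastermind co-activator, and switch on repressors of the HES and HEY families. Jagged and Delta-like 1 proteins activate the receptors of neighbouring cells, whereas Dll3 acts mainly inside the cell that makes it, as an inhibitor. In the developing liver, Jag1 and Notch2 are known for their part in the formation of bile ducts. Dll1 and Dll3 are known for the segmentation of the paraxial mesoderm.

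The promoter sequences of 8 of the 10 genes were matched by symbol in a RefSeq table of assembly GRCm38.p6; Hes1 and Hey1 were not matched. The windows run from 250 bases before to 50 bases after the annotated start. Those of Notch1 and Jag1 are shown because these genes fell and then rose in the sorted cells, and those of Dll1 (both annotated starts) and Dll3 because their signals dropped below background by day 7. The Dll1 starts are numbered by rising coordinate. Dll1 is on the minus strand, so its second start lies upstream of its first. Capitals mark N-boxes (CACNAG on either strand), a motif bound by HES proteins.
Notch1, chr2:26503773-26504072, minus strand: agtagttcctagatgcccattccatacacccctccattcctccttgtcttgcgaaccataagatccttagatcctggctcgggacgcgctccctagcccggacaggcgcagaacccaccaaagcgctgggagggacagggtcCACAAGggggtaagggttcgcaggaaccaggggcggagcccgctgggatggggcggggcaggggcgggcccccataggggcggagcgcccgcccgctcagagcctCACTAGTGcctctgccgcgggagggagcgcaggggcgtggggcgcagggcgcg
Jag1, chr2:137116471-137116770, minus strand: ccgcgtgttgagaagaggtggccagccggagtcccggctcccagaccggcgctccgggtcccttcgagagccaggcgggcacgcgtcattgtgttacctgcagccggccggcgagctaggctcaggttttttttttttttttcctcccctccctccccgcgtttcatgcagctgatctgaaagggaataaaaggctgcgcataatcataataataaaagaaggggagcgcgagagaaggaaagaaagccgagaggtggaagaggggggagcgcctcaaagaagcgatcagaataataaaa
Dll1, first start, chr17:15375774-15376073, minus strand: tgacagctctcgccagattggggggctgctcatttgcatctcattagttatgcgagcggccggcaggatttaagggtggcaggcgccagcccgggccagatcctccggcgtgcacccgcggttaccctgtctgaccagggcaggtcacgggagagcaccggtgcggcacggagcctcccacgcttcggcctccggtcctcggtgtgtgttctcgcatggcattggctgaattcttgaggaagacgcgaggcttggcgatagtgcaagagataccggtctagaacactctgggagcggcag
Dll1, second start, chr17:15376883-15377182, minus strand: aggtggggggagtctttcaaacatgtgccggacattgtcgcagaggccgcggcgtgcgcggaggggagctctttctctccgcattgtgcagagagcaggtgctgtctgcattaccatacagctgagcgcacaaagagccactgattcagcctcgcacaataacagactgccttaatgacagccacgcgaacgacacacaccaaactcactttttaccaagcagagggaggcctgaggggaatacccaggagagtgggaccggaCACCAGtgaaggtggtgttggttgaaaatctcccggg
Dll3, chr7:28301736-28302035, minus strand: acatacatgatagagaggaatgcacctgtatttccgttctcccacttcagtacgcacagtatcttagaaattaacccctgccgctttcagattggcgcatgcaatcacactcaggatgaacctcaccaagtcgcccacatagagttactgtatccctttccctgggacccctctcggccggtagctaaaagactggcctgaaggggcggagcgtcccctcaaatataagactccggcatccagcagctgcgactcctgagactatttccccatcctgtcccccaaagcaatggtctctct
Across all 9 windows of the 8 genes, the RBPJ motif GTGGGAA and the E-box CACGTG, a motif bound by HEY proteins, had 0 matches on either strand. Among all 32851 RefSeq promoter windows of this length, 6.38% held GTGGGAA and 7.15% held CACGTG. The N-box was found 3 times at Notch1, where the matches at -3 to 3 and -1 to 5 around the start overlap each other and the other lies at -108 to -103. Notch3 held 2 N-boxes, Notch2 had 1, the second start of Dll1 had 1 (14 to 19), and Notch4, Jag1, Jag2 and Dll3 had 0, against 42.5% of all windows with at least 1. A match is a run of letters, not a measured binding site.

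Signals are log2 values per probe set from RMA, which brings the arrays to a common distribution. Levels of different genes are not comparable, because each probe set has its own brightness. Correlation across genes between arrays of the same day was 0.984 to 0.991. A mean above the 95th percentile of 1105 olfactory receptor genes, which are silent in most cells, is called above background; this reference was 6.06 at day 4, 6.04 at day 7 and 6.04 at day 21. Of 12 marker genes of Afp-expressing endoderm, 8 were above background at day 4 and 12 at days 7 and 21. Those below background at day 4 were Afp, Ttr, Apoa1 and Cubn, with means of 5.72, 5.83, 5.64 and 5.72. Afp itself was at 5.93, 5.62 and 5.62 on the day 4 arrays, below background although the labels give Afp as the sorting marker, at 10.68, 10.59 and 10.54 at day 7 and at 13.12, 13.14 and 12.95 at day 21. In bulk samples of this kind, fewer cells of a type and less RNA per cell cannot be told apart.

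**Figure D1:**
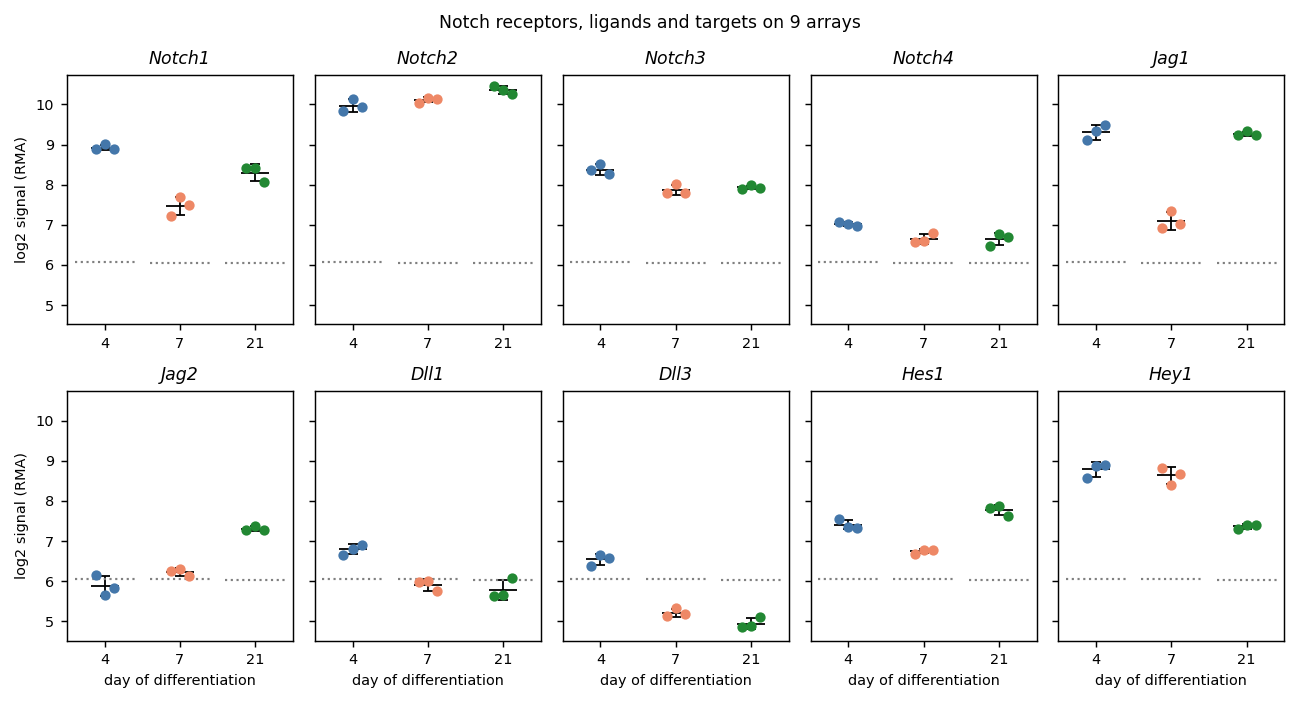
Log2 RMA signal (y axis) of the 10 genes by day of differentiation (x axis, days at equal spacing). Points are the 9 arrays, black bars the mean ± SD of 3 arrays, and dotted lines the background reference of each day. Jag1, Notch1 and Hes1 dip at day 7, Dll1 and Dll3 pass below the dotted line after day 4, Hey1 drops at day 21 and Jag2 climbs at day 21.

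By day 7, most of the 10 transcripts were lower than at day 4. The genes that fell were Jag1, Notch1, Dll3, Dll1, Hes1 and Notch3, and 0 rose (1, Jag2, with an unadjusted limma p under 0.05). This is 6 of 10 genes called lower at a limma adjusted p under 0.05, against 6.47% of all genes called lower (13.4% in either direction). All 10 genes were above background on at least 1 day (59.5% of all genes), 9 of them at day 4 (53.6%), 8 at day 7 (54.5%) and 8 at day 21 (56.1%). The median log2 change of the 10 was -0.58, and that of all genes -0.0054. From day 7 to day 21, Jag1, Jag2, Hes1 and Notch1 rose and Hey1 fell. These are 4 of 10 called higher and 1 called lower, where 12.4% and 10.7% of all genes were called, and the median was 0.15 against -0.03 for all genes. Between day 4 and day 21, 6 of the 10 fell (14.1% of all genes) and 3 rose (15% of all genes), and Jag1 was the 1 gene not called; the median was -0.41 against -0.03.

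**Figure D2:**
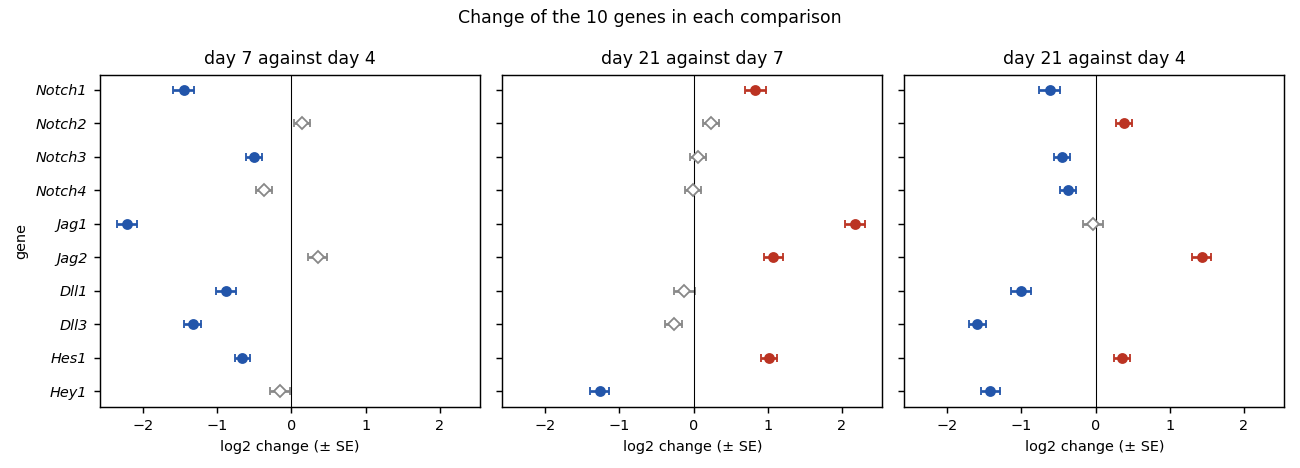
Log2 change (x axis, ± SE from limma) of each gene (y axis) in the 3 comparisons. Blue points fell and red points rose at a limma adjusted p under 0.05; open grey diamonds did not pass. The blue points of the first panel include Jag1 at -2.21 and Notch1 at -1.45, which turn to red at 2.18 and 0.83 in the second panel, while Hey1 is blue only from day 7 on.

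Among the receptors, Notch1 changed most. Its log2 signals were 8.88, 9.003 and 8.88 on the day 4 arrays, 7.23, 7.69 and 7.49 at day 7, and 8.42, 8.42 and 8.07 at day 21. The 3 groups did not overlap: day 4 was highest, day 21 intermediate and day 7 lowest. Notch1 (probe set 17383052) fell 2.74-fold by day 7, a log2 change of -1.45 ± 0.14 (SE; limma adjusted p = 5.56e-05), and rose 1.78-fold by day 21 (0.83 ± 0.14, limma adjusted p = 0.00143). At day 21 it was still 1.54-fold lower than at day 4 (-0.62 ± 0.14, limma adjusted p = 0.00648).

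Notch2, the receptor known for its part in bile duct formation, moved little. Its signals were 9.83, 10.14 and 9.94 at day 4, 10.04, 10.17 and 10.14 at day 7, and 10.46, 10.37 and 10.25 at day 21. Days 4 and 7 overlapped, with a change of 0.15 (95% interval -0.10 to 0.39), and the next interval did not pass either, at 0.24 (-0.0007 to 0.48). Only between day 4 and day 21 was Notch2 called, 1.31-fold higher (0.39 ± 0.11, limma adjusted p = 0.0211). That call was lost when the median of each array was subtracted (0.28, limma adjusted p = 0.0825) and without any 1 of 4 arrays, those of day 4 replicates 1 and 3 and day 21 replicates 1 and 2.

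Notch3, a receptor prominent in vascular smooth muscle, stepped down once. It was at 8.36, 8.52 and 8.26 at day 4, at 7.80, 8.02 and 7.79 at day 7, and at 7.89, 7.98 and 7.92 at day 21, so that day 4 stood above both later days and these overlapped. The change was -0.50 ± 0.11 by day 7 (limma adjusted p = 0.00985) and -0.45 ± 0.11 by day 21 against day 4 (limma adjusted p = 0.00918). Between days 7 and 21 it was 0.057 (95% interval -0.18 to 0.29), a value that turned negative under both other scalings of the arrays.

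Notch4, a receptor best known from endothelium, had means of 7.02 ± 0.04, 6.65 ± 0.13 and 6.65 ± 0.16 (SD, n = 3 arrays). All day 7 arrays (6.56, 6.60 and 6.80) lay under the day 4 arrays (7.06, 7.02 and 6.98), but the change of -0.37 ± 0.11 did not pass (limma adjusted p = 0.0541). It passed in 5 of the alternative fits, with adjusted p between 0.0253 and 0.0476. With day 21 (6.47, 6.77 and 6.70) against day 4 the change was -0.37 ± 0.11 and was called (limma adjusted p = 0.0271), a call lost without any 1 of 4 arrays: each day 4 replicate and day 21 replicate 1 (adjusted p up to 0.0948).

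Of the ligands, Jag1 made the largest change of all 10 genes in both intervals. It was at 9.10, 9.33 and 9.48 on the day 4 arrays, at 6.93, 7.35 and 7.01 at day 7, and at 9.24, 9.33 and 9.25 at day 21. The day 7 arrays stood apart from all others, while days 4 and 21 overlapped. Jag1 (probe set 17392151) fell 4.63-fold (-2.21 ± 0.13, limma adjusted p = 2.24e-06) and then rose 4.52-fold (2.18 ± 0.13, limma adjusted p = 1.37e-06). Day 21 against day 4 gave -0.034, with a 95% interval from -0.33 to 0.26.

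Jag2, the other Jagged ligand, climbed late. It was at 6.15, 5.66 and 5.82 at day 4, with a mean below background, at 6.25, 6.31 and 6.13 at day 7, and at 7.27, 7.38 and 7.27 at day 21. Days 4 and 7 overlapped, and the change of 0.35 ± 0.13 did not pass (limma adjusted p = 0.108); without day 4 replicate 1 it was 0.49 and passed (adjusted p = 0.0220). All day 21 arrays were higher than all others. Jag2 (probe set 17284253) rose 2.11-fold from day 7 to day 21 (1.08 ± 0.13, limma adjusted p = 1.43e-04). Against day 4 it was at least 2.31-fold higher at day 21, taking the higher of its signal and the background reference on each day 4 array (measured change 1.43 ± 0.13, limma adjusted p = 1.55e-05).

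Both Delta-like ligands were above background only at day 4. Dll1 (probe set 17341179) was at 6.66, 6.81 and 6.91 at day 4, at 5.99, 5.996 and 5.74 at day 7, and at 5.62, 5.67 and 6.07 at day 21. Day 4 stood above both later days, which overlapped. Dll1 was at least 1.66-fold lower at day 7 (measured change -0.88 ± 0.14, limma adjusted p = 0.00158) and at least 1.70-fold lower at day 21 than at day 4 (-1.01 ± 0.14, limma adjusted p = 2.94e-04). A second, dimmer Dll1 probe set (17333549) had means of 5.45, 5.47 and 5.39, all below background, and with both probe sets averaged the changes against day 4 were -0.43 at day 7 and -0.53 at day 21, both still called.

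Dll3 (probe set 17488379) was at 6.39, 6.66 and 6.57 at day 4, at 5.13, 5.32 and 5.18 at day 7, and at 4.85, 4.88 and 5.10 at day 21. The day 4 arrays were again the highest. It was at least 1.40-fold lower at day 7 (measured change -1.33 ± 0.11, limma adjusted p = 2.62e-05) and at least 1.43-fold lower at day 21 than at day 4 (-1.60 ± 0.11, limma adjusted p = 3.06e-06). Between days 7 and 21 both Delta-like genes lay below background, so no fold is given; the differences of -0.12 for Dll1 and -0.27 for Dll3 did not pass (limma adjusted p = 0.602 and 0.131), and that of Dll3 passed with the median of each array subtracted (adjusted p = 0.0372).

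The target genes Hes1 and Hey1, both repressors of transcription, took different courses. Hes1 (probe set 17324623) was at 7.55, 7.35 and 7.33 at day 4, at 6.69, 6.79 and 6.77 at day 7, and at 7.81, 7.86 and 7.63 at day 21. The 3 groups did not overlap, with day 7 lowest and day 21 highest. Hes1 fell 1.58-fold by day 7 (-0.66 ± 0.10, limma adjusted p = 0.00167) and rose 2.02-fold by day 21 (1.02 ± 0.10, limma adjusted p = 5.31e-05). Day 21 was 1.28-fold higher than day 4 (0.36 ± 0.10, limma adjusted p = 0.0262). This last call did not hold with the median (0.25) or the 75th percentile (0.30) of each array subtracted, with only those 2 days in the fit (adjusted p = 0.0527), or without any 1 of 4 arrays (day 4 replicates 2 and 3, day 21 replicates 1 and 2).

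Hey1 (probe set 17404011) was at 8.58, 8.88 and 8.90 at day 4 and at 8.82, 8.41 and 8.67 at day 7, so these days overlapped, and at 7.30, 7.40 and 7.41 at day 21. Only the day 21 arrays stood apart, below all others. The change by day 7 was -0.15 (95% interval -0.44 to 0.14). Hey1 then fell 2.40-fold (-1.26 ± 0.13, limma adjusted p = 5.50e-05) and was 2.67-fold lower at day 21 than at day 4 (-1.42 ± 0.13, limma adjusted p = 1.94e-05).

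Whether a gene changed differently in the 2 intervals was tested in the same limma fit, as the change from day 7 to 21 minus the change from day 4 to 7. The comparisons of both intervals use the same day 7 arrays. The difference was called for Jag1 (4.39 ± 0.23, limma adjusted p = 9.21e-07), Notch1 (2.28 ± 0.24, limma adjusted p = 9.49e-05) and Hes1 (1.68 ± 0.18, limma adjusted p = 1.10e-04), which fell and then rose. Among all genes, 2.37% fell and then rose with this difference called, and 2.66% rose and then fell; of the 10 genes these were 3 and 0. The difference was also called for Dll3 (1.06 ± 0.20) and, with the opposite sign, for Hey1 (-1.11 ± 0.23). Dll3 lay below background at days 7 and 21, where a further fall could hardly show. Its difference is therefore not read as a change of course. With Dll3 counted, 5 of 10 were called, against 14.7% of all genes, 4 of them upward (8.33%) and 1 downward (6.32%). For Jag2, Dll1 and Notch3 it did not pass (limma adjusted p = 0.0553, 0.0627 and 0.0753), nor for Notch4 (0.285) and Notch2 (0.826).

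When groups are compared array by array, 7 of the 10 genes had all day 7 arrays below all day 4 arrays (15.9% of all genes) and 0 had all above (14%). From day 7 to day 21 all arrays were higher for 5 genes (17.1% of all genes) and lower for 2 (18.4%), and between day 4 and day 21 they were higher for 3 (19.4%) and lower for 6 (21%).

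Beyond the 10 genes, 54 of 56 other listed genes of the pathway were measured. By day 7, 5 rose and 4 fell, which is 9 of 54 and near the 13.4% of all genes called. From day 7 to day 21, 7 rose and 5 fell (23% of all genes were called), and between day 4 and day 21, 13 rose and 11 fell (29.1% of all genes). Their median log2 changes were 0.016, -0.033 and -0.013, near those of all genes.

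**Figure D3:**
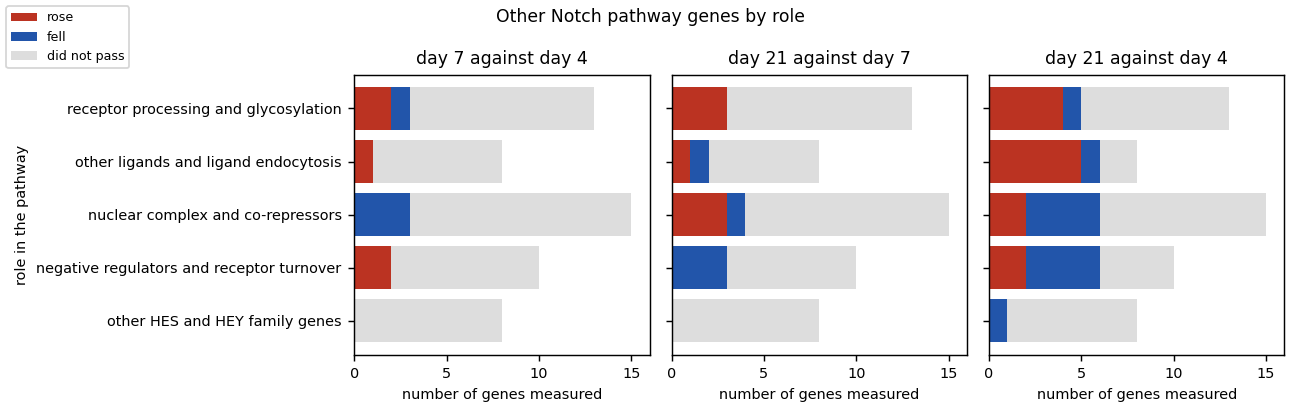
Number of measured genes (x axis) of 5 roles in the pathway (y axis) that rose (red), fell (blue) or did not pass (grey) at a limma adjusted p under 0.05 in the 3 comparisons. Grey takes most of each bar at day 7 against day 4, where 45 of 54 genes did not pass.

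The counts by role stand against 6.98% of all genes called higher and 6.47% called lower by day 7. From day 7 to day 21 these shares were 12.4% and 10.7%, and between day 4 and day 21 they were 15% and 14.1%. With so few genes per role, the counts are descriptions. Of 13 genes of receptor processing and glycosylation, 2 rose and 1 fell by day 7, 3 rose from day 7 to 21, and 4 rose and 1 fell between day 4 and day 21. Adam10, the protease of the outer cut, was at 9.36, 9.37 and 9.08 at day 4, at 8.86, 9.16 and 8.85 at day 7, and at 10.55, 10.52 and 10.14 at day 21. It rose 2.72-fold from day 7 to day 21 (1.44 ± 0.15, limma adjusted p = 4.60e-05). The gamma-secretase subunit Ncstn rose by 0.44 ± 0.10 in that interval, and its partner Psenen rose by 0.46 ± 0.11 by day 7. Furin, which cleaves the receptor precursor, rose by 0.98 ± 0.11 by day 7. Poglut1, a glucosyltransferase of the receptors, changed by -0.61 ± 0.12 and then by 0.51 ± 0.12. At day 21 against day 4 the called genes were Adam10 (1.13), Ncstn (0.69), Furin (0.69), Psenen (0.63) and Lfng (-0.61), a glycosyltransferase that tunes the response to Delta and Jagged ligands; Lfng, the smallest of these, is named outside the rule for names.

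Among 8 other ligands and genes of ligand endocytosis, Dlk1, a Delta-like protein that inhibits Notch and is imprinted, made the largest change. It was at 7.29, 6.81 and 7.29 at day 4, at 9.03, 9.08 and 9.01 at day 7, and at 9.07, 8.64 and 8.69 at day 21. The day 4 arrays were lower than all others, and Dlk1 rose 3.75-fold by day 7 (1.91 ± 0.16, limma adjusted p = 1.70e-05), the 1 gene of the role called in that interval. From day 7 to day 21, Mib2, a ubiquitin ligase of ligands, rose by 0.54 ± 0.11 and Neurl1a, another such ligase, changed by -0.54 ± 0.11. Against day 4, 5 were called higher and 1 lower at day 21, led by Dlk1 (1.67), Mib2 (0.64) and Neurl1a (-0.57). The other 3 called higher were dim: Neurl1b and Dlk2 lay below background at days 4 and 7 and were at least 1.13-fold and 1.06-fold higher at day 21 than at day 4, and Dner lay below background on all 3 days. For Neurl1b the day 4 and day 21 arrays overlapped. Dll4, the endothelial Delta-like ligand, was below background on all 3 days (means 5.18, 5.44 and 5.30).

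Of 15 genes of the nuclear complex and its co-repressors, 3 fell by day 7: Maml3 (-1.17 ± 0.14), Maml2 (-1.10 ± 0.16) and the co-repressor Tle4 (-0.81 ± 0.11). Maml2, a Mastermind co-activator, was at 8.03, 8.22 and 8.06 at day 4, at 6.64, 7.06 and 7.30 at day 7 and at 8.33, 8.03 and 8.03 at day 21. As for Jag1, the day 7 arrays stood apart below days 4 and 21, which overlapped. From day 7 to day 21 Maml2 rose by 1.13 ± 0.16, Tle2 rose by 0.73 ± 0.14, the acetyltransferase Kat2b rose by 0.52 ± 0.12, and the deacetylase Hdac1 fell by 0.66 on the log2 scale. Against day 4, 2 rose and 4 fell at day 21, the largest changes being those of Tle4 (-0.92), Maml3 (-0.88), Hdac1 (-0.86) and Tle2 (0.79). Rbpj, the DNA-binding partner of the receptors, did not pass in any of the 3 comparisons, with means of 9.17, 9.26 and 9.29.

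Of 10 negative regulators, 2 rose by day 7: Dtx4, a Deltex ubiquitin ligase (0.91 ± 0.12), and Numb, an endocytic adaptor that restrains the receptor (0.68 ± 0.09). From day 7 to day 21, 3 fell: Egfl7 (-0.63 ± 0.14), Numb (-0.53 ± 0.09) and Dtx1 (-0.49 ± 0.16). Against day 4, 2 rose and 4 fell at day 21. The largest of these changes were those of Dtx4 (0.81), Dtx1 (-0.67), Nrarp (-0.48), a feedback inhibitor and target of the pathway, and Egfl7 (-0.47). Of 8 other HES and HEY family genes, 0 were called in either interval by limma, with 0 at an unadjusted p under 0.05 by day 7 and 1 from day 7 to day 21. Between day 4 and day 21 only Hey2 was called, at least 1.35-fold lower at day 21, where it lay below background (measured change -0.61 ± 0.19, limma adjusted p = 0.0318); Hes2, Hes3, Hes5 and Helt were below background on all 3 days.

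The genes most like each of the 7 members whose day means spanned at least 1 were found by the root mean square (RMS) difference over the 9 arrays, each gene centred on its own mean, among 12216 genes. Nearest to Jag1 were Ifitm3 (RMS 0.16), an interferon-induced antiviral protein, and Ifih1 (0.21), a sensor of double-stranded RNA, where the median gene differed by 1.07. Nearest to Notch1 were Auts2 (0.10) and the glutamate transporter gene Slc1a3 (0.11), with a median gene at 0.65. Hes1 was matched most closely by Trp53inp1 (0.08), a p53-induced gene, and the kinase gene Stk39 (0.08), with the median gene at 0.50. Jag2 had Fam114a1 (0.07) and Cdh1 (0.08), which encodes E-cadherin, with the median gene at 0.67. For Dll1 they were Ppp1r18 (0.06) and the pro-apoptotic gene Bak1 (0.12), and for Dll3 the homeobox gene Hoxb1 (0.15) and St6galnac4 (0.16), a sialyltransferase gene. Hey1 was closest to Pcbp4 (0.14), which encodes an RNA-binding protein, and Cdc20 (0.15), an activator of the anaphase-promoting complex. These are descriptions of 9 arrays in 3 groups, in which many genes follow each course.

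**Figure D4:**
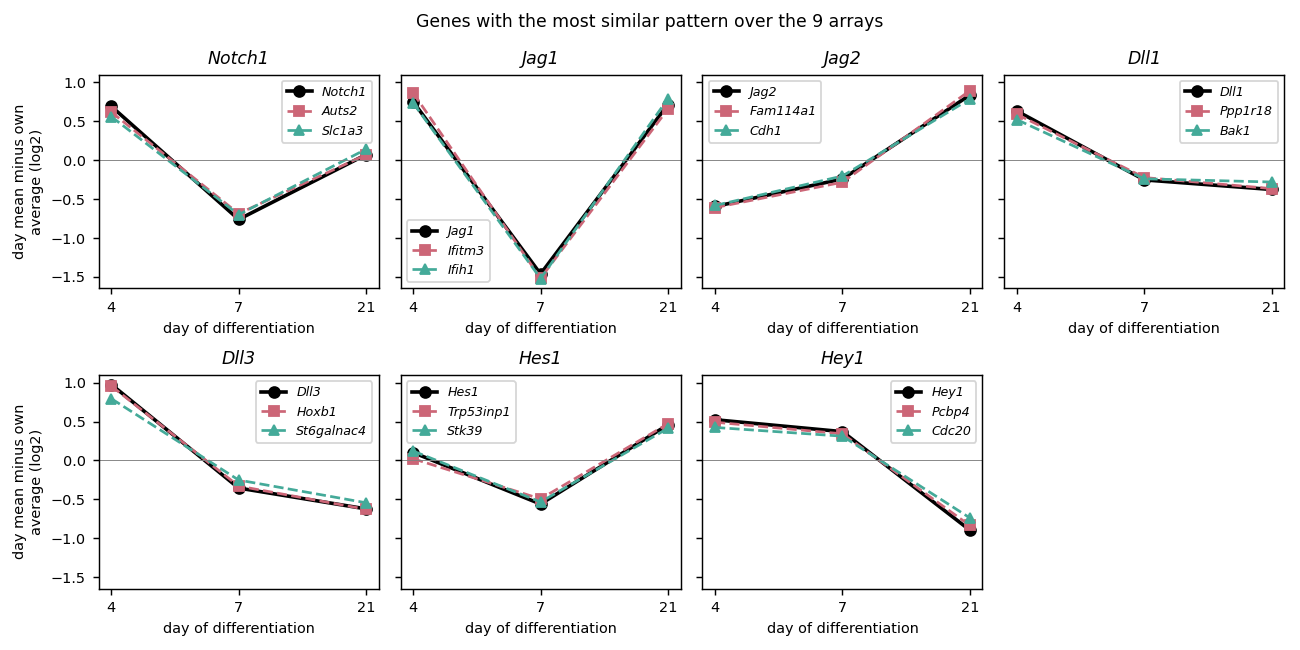
Day means minus the gene's own average over the 3 days (y axis, log2) by day of differentiation (x axis, days at equal spacing), for 7 genes (black) and the 2 genes nearest to each (dashed). Ifitm3 and Ifih1 share the day 7 dip of Jag1, and Pcbp4 and Cdc20 the day 21 drop of Hey1.

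Markers of Afp-expressing endoderm and of other cells moved on the same arrays, and their part in the results above was not tested. Their counts stand against 6.98% of all genes called higher and 6.47% called lower by day 7, and 12.4% and 10.7% from day 7 to day 21. Of the 12 markers of Afp-expressing endoderm, 10 rose by day 7, when Jag1, Notch1 and Hes1 fell, with a median change of 1.93. In the next interval, when these 3 genes rose, 8 of the markers fell and 2 rose (Afp and Foxa1), with a median of -0.73; Apob changed by -2.50 and Cubn by -2.17. Array means of the markers were 6.74 to 6.91 at day 4, 9.40 to 9.49 at day 7 and 8.93 to 8.95 at day 21. Afp, Ttr, Apoa1 and Cubn were below background at day 4. Of 9 measured genes of presomitic mesoderm and primitive streak, 4 fell and 1 rose by day 7, as Dll1 and Dll3 fell. Named after their values were seen, Rspo3 (-2.93), Mixl1 (-2.60), Tbx6 (-0.89) and Mesp2 (-0.72) fell and Cited1 (1.13) rose. Msgn1, Mesp1, Ripply2 and Wnt3a were not called, and T was not measured. The mean log2 signal of the 9 genes was 7.03 to 7.07 on the day 4 arrays, 6.13 to 6.38 at day 7 and 5.80 to 5.99 at day 21. Mesp1, Ripply2 and Wnt3a were below background throughout. Of 8 biliary epithelial genes, 1 fell by day 7 (Sox9, named after its value was seen), while 7 rose and 1 fell from day 7 to day 21, when Jag1, Jag2, Hes1 and Notch1 rose. Array means of that list were 7.04 to 7.37, 7.02 to 7.13 and 8.86 to 9.05 in day order, with Cftr and Onecut1 below background at days 4 and 7. In the same interval 9 of 10 mesenchyme and fibroblast genes rose, after 3 had fallen by day 7, and their means were 6.83 to 6.87, 6.14 to 6.34 and 8.75 to 9.65; Dcn and Lum were below background at days 4 and 7.

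No link of endothelial genes to Notch4 or Hey1 was tested. Means of the endothelial genes were 6.06 to 6.17, 6.17 to 6.26 and 5.74 to 5.93 on the arrays of the 3 days. Of 12, 2 rose and 1 fell by day 7 and 3 fell by day 21 against day 7, and Tie1, Tek, Emcn, Erg, Esam and Cldn5 were below background on every day. Of 10 genes of mural cells and smooth muscle, where Notch3 is known, 3 fell by day 7, and 4 rose and 1 fell in the next interval, with array means of 7.55 to 7.79, 7.34 to 7.39 and 7.53 to 7.75; Kcnj8 was below background at days 4 and 7. Neural genes (9 measured) had 2 called up and 2 down by day 7, then 1 up and 2 down. Their array means were 6.31 to 6.40, 6.27 to 6.43 and 6.21 to 6.41, with Neurog1 and Dcx below background throughout. Of 8 cardiac genes measured, 2 rose by day 7, and 2 fell in the next interval. Their array means were 6.63 to 6.80, 7.28 to 7.40 and 6.75 to 6.90, with Actn2 and Nppa below background throughout.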

How the data were processed

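From each sample 500 pg of total RNA was turned into biotinylated cDNA with an Affymetrix WT Pico kit, per the labels' protocols; such labelling amplifies the RNA, which can distort ratios between dim transcripts. The authors' deposited table holds log2 signals, 1 per probe set and array. The submitters' processing notes name Affymetrix Expression Console and RMA, without versions, and the genome build of the array annotation is not used here. RMA removes most of a shift common to all transcripts. Of 34365 probe sets, 23521 had 1 gene symbol; the brightest per gene was kept, which left 22180 genes. Array medians were 5.88 to 5.98, and 0 pairs of arrays were identical. The number of arrays, not a read depth, limits the precision.

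Day means were estimated for every gene from the 9 arrays together (limma 3.58.1, lmFit and eBayes; R 4.3.3). Tests were two-sided, p-values were adjusted by Benjamini-Hochberg over the genes of a comparison, and a call is an adjusted p under 0.05. The fit was tested on simulated data with independent noise and known changes in a small share of genes. Such data hold no effect shared between arrays, so that test does not bear on one. Separate cultures are not stated for the arrays of a day, so the p-values reflect the spread among these arrays, which may be technical. The table gives no scan date or slide. A bound on a fold ("at least") sets the dim day's arrays at the higher of their own signal and that array's olfactory receptor percentile.

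The 10 genes, the lists of pathway genes and cell markers, and the tests were chosen with earlier results of these data known. All 10 genes are named. Of other pathway genes, the called ones with the largest changes are named, up to 4 per role and comparison; genes named for being below background, and Rbpj, were added after their values were seen. Alternatives were the 2 days alone, a replicate block, trended and robust eBayes, averaged probe sets, 2 other scalings, a filter on dim genes, and each array left out.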

Additional observations from a re-analysis of the deposited data

Results flagged for a closer look

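Genes whose changes in the 2 intervals differed, by the limma test of the difference itself, were Jag1 (4.39), Notch1 (2.28), Hes1 (1.68), Dll3 (1.06) and Hey1 (-1.11), each given as the log2 change from day 7 to 21 minus that from day 4 to 7. Jag1, Notch1 and Hes1 were called in both intervals with opposite signs. Dll3 was called from day 4 to 7 only and lay below background at both later days. Hey1 was called from day 7 to 21 only. The intervals last 3 and 14 days and share the day 7 arrays. Groups of 3 arrays are too small for a test of single arrays that stand apart.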

How the results depend on the processing

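Over 8 kinds of alternative, the calls of Jag1, Notch1, Dll1, Dll3, Hes1 and Notch3 at day 7 against day 4, and of Jag1, Jag2, Hes1, Notch1 and Hey1 at day 21 against day 7, held in every fit. Counts with each array left out ranged from 6 to 7 of 10 (day 7 against 4), 5 to 5 (day 21 against 7), 6 to 9 (day 21 against 4) and 5 to 6 (difference between intervals). With only genes above background on at least 1 day fitted, 8 members were called for the difference between intervals in place of 5. At day 7 against day 4, 14 other pathway genes were called in place of 9. That fit both estimates the spread and adjusts p-values over fewer genes. The shares of all genes given above do not apply to its counts, which are not read as stronger results. Dll1 and Dll3 pass the filter through day 4 only, and Jag2 through days 7 and 21. Signs turned only for values that were not called: Notch3 from day 7 to 21 at -0.042 (array medians subtracted) and -0.0052 (75th percentiles), Notch4 from day 7 to 21, which ran from -0.070 to 0.082 as each array was left out (positive without day 7 replicate 3 or day 21 replicate 1), and Jag1 at day 21 against day 4, from -0.14 to 0.053 (positive without day 4 replicate 3). The cause was not tested. Subtracting array medians moved the median change of all genes to -0.13 (day 21 against 7) and -0.14 (day 21 against 4), and the share of called genes that were higher from 53.7% to 37.6% and from 51.6% to 36.8%. The labels do not say what a replicate number marks. Same-numbered arrays did not consistently deviate together (correlations from -0.07 to 0.31 over the comparisons, not all over 0.1, and not every array correlated best with its own number). The highest, 0.31, was that of replicate 3 at days 7 and 21, against at most -0.17 with other numbers. With a replicate block, 6, 5 and 9 members were called in the 3 comparisons, as without it, and 2895, 5041 and 6413 genes in all against 2983, 5106 and 6448. Signal over background limits Dll1, Dll3 and Jag2.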
